A study of Homo sapiens with 11 samples.

Results

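The BCL2 family of survival and death genes was examined in RWPE1 cells, an immortalized and non-tumorigenic line of human prostate epithelium, before and during hypoxia. The 10 genes were taken by symbol: the pro-survival genes MCL1 and BCL2L1, the BH3-only genes BCL2L11, PMAIP1, BBC3, BIK, BMF and BID, and the effector genes BAX and BAK1. Each matched 1 Ensembl row of the 60676 in the count table, and all 10 were among the 19981 genes with enough counts to be tested.

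Normoxic cells were untreated (called 0 h, 3 libraries). Hypoxic cells were kept at 1% oxygen for 6 h (3 libraries), 12 h (3 libraries) or 24 h (2 libraries, the other 24 h library not being analysed here). All were the same line in the same serum-free keratinocyte medium, and the medium of the hypoxic cells also held 10 mM HEPES, so the effects of oxygen and buffer cannot be told apart. All replicates are from 1 cell line, and the sources used here do not say whether they were separate cultures, so p-values measure the spread between these libraries, which may be technical.

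Proteins of the BCL2 family decide whether the outer mitochondrial membrane is opened, the step that releases cytochrome c and sets off the caspases. MCL1 and BCL-XL, the latter made from BCL2L1, hold the effectors BAX and BAK in check, and BH3-only proteins bind the pro-survival proteins or act on the effectors directly. The protein products are BIM for BCL2L11, NOXA for PMAIP1, PUMA for BBC3 and BAK for BAK1. In epithelial cells this balance is known to shift with growth factor supply, attachment and stress, and much of its control lies in protein turnover, which RNA counts do not show.

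What these genes share in sequence is the BH3 motif, the short helix by which family members bind each other. Its core is a leucine, 3 further residues, a glycine or alanine, and an aspartate. The coding DNA of that core is shown for each gene so that the groups can be compared. It was read 5′ to 3′ on the coding strand from the canonical GENCODE release 44 transcript, as 36 bases in GRCh38, and capitals mark the codons of the leucine, the glycine or alanine, and the aspartate.
MCL1: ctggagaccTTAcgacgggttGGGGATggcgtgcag
BCL2L1: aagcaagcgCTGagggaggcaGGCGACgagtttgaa
BCL2L11: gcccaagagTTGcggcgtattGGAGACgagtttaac
PMAIP1: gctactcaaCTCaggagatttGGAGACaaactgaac
BBC3: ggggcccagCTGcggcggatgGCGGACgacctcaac
BIK: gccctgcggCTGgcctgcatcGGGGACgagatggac
BMF: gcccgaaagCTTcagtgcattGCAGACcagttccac
BID: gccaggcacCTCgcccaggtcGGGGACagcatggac
BAX: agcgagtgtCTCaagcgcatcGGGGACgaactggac
BAK1: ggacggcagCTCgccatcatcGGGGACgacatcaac

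Each of the 10 coding sequences held the core pattern exactly 1 time. Of 19701 canonical coding sequences 24.8% hold it somewhere, so the letters alone do not mark the family. BBC3 and BMF have an alanine codon (GCG and GCA) where the other 8 genes have a glycine codon. These are also the 2 genes called lower in every comparison with 0 h below, and no test connects the codon with the fall. PMAIP1, with a glycine codon, was lower on average at each time too, but was called at 6 h alone. The windows lie inside single exons, for example at chr19:47226582-47226617 on the minus strand for BBC3, at chr15:40104198-40104233 on the minus strand for BMF and at chr22:17739418-17739453 on the minus strand for BID.

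Between 27496009 and 49488345 reads per library were counted to genes, and the 10 genes took 38 to 28149 counts each. The TMM scaling factors were 0.539 to 1.32, with the lowest in 24 h replicate 2, beside 0.851 in its partner. The 24 h libraries differed from each other more than any other 2 libraries of the same time. The chi-square per degree of freedom, a measure of the difference between 2 libraries, was 288, beside 3.21 to 75.1. Of the 10 genes, BIK, BID and BAX stood far apart between them. All 8 basal epithelial markers were present, and their summed CPM (counts scaled to the effective library size after TMM) were 12770 to 16264 in normoxia beside 30602 to 57095 at 24 h. The abundant keratins KRT5, KRT14 and KRT17 carried the rise of that sum, and of the 8 genes 4 were called higher and 3 lower at 24 h, among the latter KRT15 (log2 fold change -1.07) and CDH3 (-0.77). Of the 7 general and luminal prostate epithelial markers 5 were present, and their summed CPM of 610 to 673 in normoxia stood beside 1345 to 2085 at 24 h. KRT8 and KRT18 carried most of the rise of that sum. CDH1, its largest part at 0 h with a mean of 324 CPM, was lower at 24 h (156 CPM, log2 fold change -1.06). The luminal prostate gene KLK3 had 0 counts in every library. Of 9 markers of immune, endothelial and stromal cells 3 reached 10 counts in any library. Their summed CPM was 47.4 to 61.2 at 0 h and 28.0 to 30.5 at 24 h, with CD3E and DCN at no more than 1 count. The collagen gene COL1A1 made up most of that sum, with 555 to 2436 counts per library and a mean of 52.8 CPM at 0 h and 29.0 CPM at 24 h. The part of these marker shifts in the results was not tested.

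The question put to the time course was which of the 10 transcripts differed between normoxia and each time at 1% oxygen. A gene was called where the adjusted p of edgeR was under 0.05 over all tested genes. At 6 h 9 of the 10 genes were called, against 52.8% of all tested genes, with 5 higher (25.1% of all) and 4 lower (27.7%). At 12 h 8 were called, against 51.2%, with 5 higher (24.2%) and 3 lower (27.1%). At 24 h 8 were called, against 61.2%, with 4 higher (29.9%) and 4 lower (31.3%). The median size of the log2 fold change over the 10 genes was 1.44, 0.96 and 1.16 at 6, 12 and 24 h, beside 0.67, 0.64 and 0.95 over all tested genes. BCL2L1, BIK, BID and BAK1 were higher than at 0 h at all 3 times, as were 14.8% of all tested genes. BBC3 and BMF were lower at all 3 times, as were 17.9%. The 3 comparisons use the same 0 h libraries and are not independent of each other.

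**Figure D1:**
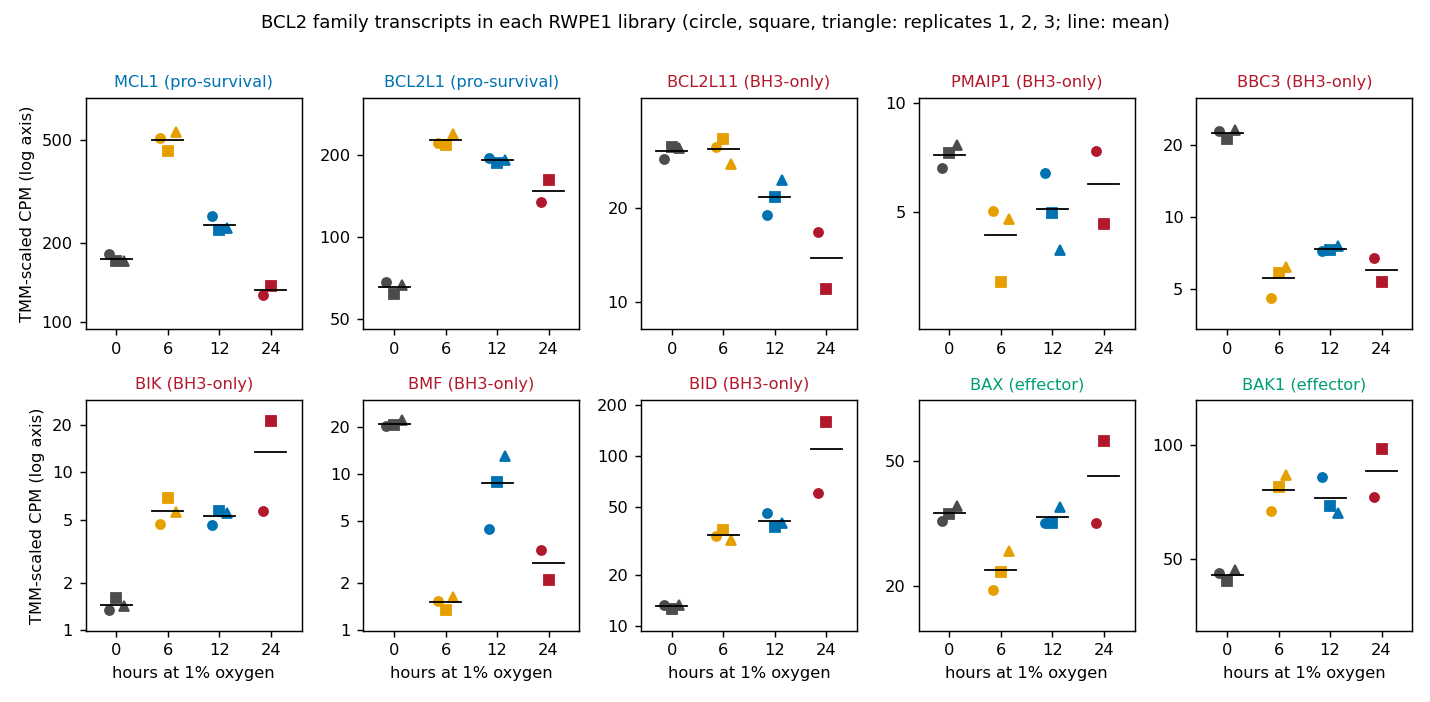
TMM-scaled CPM of each gene (log axis) in each library against hours at 1% oxygen, with circles, squares and triangles for replicates 1, 2 and 3 and a line for the mean. MCL1 peaked at 6 h and was lowest at 24 h, BMF was lowest at 6 h, and in BIK and BID 24 h replicate 2 (the square, at 21.3 and 158 CPM) lay far above replicate 1 (5.69 and 60.2 CPM).

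MCL1, on chromosome 1 (GRCh38, 150560895 to 150579738, minus strand), encodes a short-lived guardian that binds NOXA, BIM and BAK. It was at 182, 172 and 171 CPM at 0 h and at 506, 452 and 534 CPM at 6 h. At 12 h it was at 254, 226 and 229 CPM, and at 24 h at 127 and 137 CPM. The 4 time points did not overlap, so MCL1 rose first and ended below its normoxic level. Its log2 fold change against 0 h was 1.51 at 6 h (SE 0.13, adjusted p = 3.35e-06), 0.43 at 12 h (SE 0.13, adjusted p = 0.0144) and -0.41 at 24 h (SE 0.15, adjusted p = 0.0285). The falls from 6 to 12 h (-1.07) and from 12 to 24 h (-0.84) were also called.

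The rise of MCL1 at 6 h kept its call in all 20 alternative analyses, as did its fall from 6 to 12 h. The step from 12 to 24 h lost its call only with the libraries of those times fitted alone (-0.87). In that fit 0 of 17807 tested genes were called. The call at 12 h against 0 h was lost in 5 of the 20, with adjusted p up to 0.855. Leaving out replicate 2 or 3 of 0 h gave 0.41, and leaving out replicate 1 of 12 h gave 0.38. The call at 24 h against 0 h was lost in 6, with adjusted p up to 0.154, and leaving out 0 h replicate 1, 2 or 3 gave -0.38, -0.43 and -0.43. Gene counts do not separate the long form of MCL1 from its short form, which is known to favour death.

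BCL2L1, on chromosome 20 (31664452 to 31723989, minus strand), gives BCL-XL and, by splicing, the short pro-death BCL-XS, again not separated here. It was at 68.1, 61.8 and 66.4 CPM at 0 h, and at 221, 218 and 239 CPM at 6 h. It was at 195, 187 and 191 CPM at 12 h and at 134 and 161 CPM at 24 h. Every hypoxic library lay above every normoxic one. The log2 fold change was 1.79 at 6 h (SE 0.13, adjusted p = 9.37e-07), 1.54 at 12 h (SE 0.13, adjusted p = 3.64e-06) and 1.17 at 24 h (SE 0.14, adjusted p = 1.76e-05). The level at 24 h was lower than at 6 h (-0.62, adjusted p = 0.00417), while the steps from 6 to 12 h and from 12 to 24 h did not pass the test (adjusted p = 0.283 and 0.0621). The difference between 6 and 24 h lost its call with quality weights (-0.61) and with only those times in the fit (-0.65), with adjusted p up to 0.076. The step from 12 to 24 h was called in 4 of 20 alternatives, which were DESeq2 (-0.34), library size alone (-0.85), at least 10 counts in every library (-0.42) and leaving out 24 h replicate 2 (-0.53). Over the 20 its adjusted p was 0.00531 to 0.327. Against 0 h the calls held in all 20 alternatives at 6 and 12 h and in all but 1 at 24 h, where library size alone gave 0.23 (adjusted p up to 0.233). Exons of the long non-coding gene ABALON on the other strand cover 41.3% of the BCL2L1 exonic sequence. ABALON had 16 to 150 counts against 2320 to 12632 for BCL2L1, and its part was not tested.

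Of the BH3-only genes, BMF and BBC3 fell. BMF (chromosome 15, 40087890 to 40108892, minus strand) encodes a BH3-only protein known to be held at the cytoskeleton and freed on detachment. It was at 20.1, 20.4 and 21.9 CPM at 0 h and at 1.54, 1.33 and 1.63 CPM at 6 h. It was at 4.43, 8.83 and 12.9 CPM at 12 h, and at 3.25 and 2.07 CPM at 24 h. The fall to 6 h, to 0.0725 of the normoxic level, was the largest change of any of the 10 genes in any comparison (log2 fold change -3.79, SE 0.34, adjusted p = 3.68e-06). The level at 12 h was higher than at 6 h in all 3 libraries (log2 fold change 2.54, SE 0.33, adjusted p = 0.00381), and that at 24 h was lower than at 12 h (-1.71, SE 0.37, adjusted p = 0.00644). The 12 h libraries spread about their mean more than those of any other time, with a mean of 8.73 CPM (SD 4.25, n = 3). BMF rested on few reads at these times, with 45, 41 and 86 counts at 6 h and 76 and 38 at 24 h.

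BBC3 (chromosome 19, 47220822 to 47232766, minus strand) encodes PUMA, which binds all pro-survival members. It was at 22.8, 21.2 and 23.1 CPM at 0 h, and at 4.61, 5.87 and 6.20 CPM at 6 h. It was at 7.20, 7.29 and 7.58 CPM at 12 h and at 6.72 and 5.34 CPM at 24 h. Unlike BMF, BBC3 stayed near its 6 h level: the log2 fold changes against 0 h were -2.00 at 6 h (SE 0.16, adjusted p = 1.88e-06), -1.60 at 12 h (SE 0.16, adjusted p = 1.05e-05) and -1.89 at 24 h (SE 0.19, adjusted p = 6.04e-06). No pair of hypoxic times was called different. The calls of BBC3 and BMF against 0 h held in all 20 alternatives.

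BCL2L11 (chromosome 2, 111119378 to 111168444, plus strand) encodes BIM, which binds every pro-survival member and is a known target of FOXO3 and of ERK signalling. It was at 29.0, 31.6 and 31.3 CPM at 0 h and at 31.6, 33.6 and 27.9 CPM at 6 h, and these groups overlapped. It was at 19.0, 21.7 and 24.8 CPM at 12 h and at 16.7 and 11.01 CPM at 24 h, below every normoxic library. The log2 fold change was 0.02 at 6 h (SE 0.17, adjusted p = 0.938), -0.49 at 12 h (SE 0.17, adjusted p = 0.0264) and -1.14 at 24 h (SE 0.20, adjusted p = 0.000304). The call at 12 h was lost in 4 of 20 alternatives (adjusted p up to 0.103), with -0.47 and -0.48 without 0 h replicates 2 and 3, and -0.40 and -0.52 without 12 h replicates 1 and 2. The call at 24 h held in all 20. Exons of the gene MIR4435-2HG on the other strand cover 10.8% of the BCL2L11 exonic sequence. MIR4435-2HG had 211 to 712 counts against 202 to 1471 for BCL2L11, and its part was not tested.

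PMAIP1 (chromosome 18, 59899996 to 59904305, plus strand) encodes NOXA, which is known to bind MCL1 and to send it for degradation. It was at 6.63, 7.30 and 7.65 CPM at 0 h and at 5.02, 3.21 and 4.78 CPM at 6 h. It was at 6.43, 4.98 and 3.93 CPM at 12 h and at 7.36 and 4.63 CPM at 24 h. Only the difference at 6 h was called (log2 fold change -0.73, SE 0.24, adjusted p = 0.0227), and it was lost without 0 h replicate 2 (-0.72), 0 h replicate 3 (-0.69) or 6 h replicate 2 (-0.55), with adjusted p up to 0.0971. At 12 h the log2 fold change was -0.50 (adjusted p = 0.101), and 6 of 20 alternatives made the call, among them the fits without 12 h replicate 1 (-0.69), 24 h replicate 1 (-0.53) and 24 h replicate 2 (-0.51). The 24 h libraries lay on both sides of the lowest normoxic one, with a log2 fold change of -0.26 (SE 0.27, adjusted p = 0.432) that was 0.014 without 24 h replicate 2. Library size alone gave -1.11 there, and called it (adjusted p = 0.0149, with up to 0.971 in other alternatives).

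BID and BIK rose. BID (chromosome 22, 17734138 to 17774770, minus strand) links death receptors to mitochondria, since caspase-8 cuts its protein into the active tBID. It was at 13.3, 12.7 and 13.3 CPM at 0 h, at 33.7, 36.7 and 32.1 CPM at 6 h and at 46.3, 38.0 and 40.5 CPM at 12 h. At 24 h the libraries stood at 60.2 and 158 CPM, above all others but far from each other. The log2 fold change was 1.38 at 6 h (SE 0.26, adjusted p = 0.00078), 1.67 at 12 h (SE 0.26, adjusted p = 0.000271) and 3.06 at 24 h (SE 0.29, adjusted p = 4.37e-06). Without 24 h replicate 2 the value at 24 h was 2.18 and without 24 h replicate 1 it was 3.54, and the call held in both fits. The step from 12 to 24 h was 1.39 with both libraries, 0.52 without 24 h replicate 2 and 1.89 without 24 h replicate 1.

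BIK (chromosome 22, 43110750 to 43129712, plus strand) encodes a BH3-only protein known to sit mostly at the endoplasmic reticulum. It was at 1.34, 1.60 and 1.42 CPM at 0 h and at 4.68, 6.91 and 5.61 CPM at 6 h. It was at 4.67, 5.66 and 5.53 CPM at 12 h, and at 5.69 and 21.3 CPM at 24 h. All 8 hypoxic libraries lay above the normoxic ones, and 7 of them lay between 4.67 and 6.91 CPM. The log2 fold change was 1.98 at 6 h (SE 0.38, adjusted p = 0.000857), 1.86 at 12 h (SE 0.38, adjusted p = 0.00149) and 3.21 at 24 h (SE 0.41, adjusted p = 3.31e-05). Without 24 h replicate 2 the 24 h value was 1.95, and it was 3.82 without 24 h replicate 1. The rise from 12 to 24 h (1.34, adjusted p = 0.022) became 0.09 without 24 h replicate 2 and was lost in 8 of 20 alternatives, among them the fits without 12 h replicate 1, 2 or 3 (1.26, 1.38 and 1.38). So the later rise of BIK rested on that single library, and its rise above 0 h did not.

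The effectors, whose proteins form the pore in the outer membrane, moved apart from each other at 6 h. BAK1 (chromosome 6, 33572547 to 33580293, minus strand) encodes the effector that resides at mitochondria, held by MCL1 and BCL-XL. It was at 45.9, 43.6 and 46.6 CPM at 0 h, at 66.9, 77.5 and 83.1 CPM at 6 h, at 82.2, 68.99 and 65.9 CPM at 12 h and at 72.8 and 97.4 CPM at 24 h. Every hypoxic library was above every normoxic one, and no pair of hypoxic times was called different. The log2 fold change was 0.74 at 6 h (SE 0.15, adjusted p = 0.00122), 0.67 at 12 h (SE 0.15, adjusted p = 0.0026) and 0.91 at 24 h (SE 0.16, adjusted p = 0.000451). Scaled by library size alone, which lowers the median of all genes by 0.50 at 12 h and 0.97 at 24 h on the log2 scale, BAK1 had 0.20 and -0.05 and lost both calls, with adjusted p over the 20 alternatives of up to 0.28 and 0.792.

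BAX (chromosome 19, 48954815 to 48961798, plus strand) encodes the effector that moves from the cytosol to mitochondria. It was at 32.3, 33.9 and 36.02 CPM at 0 h, and at 19.3, 22.1 and 25.8 CPM at 6 h. It was at 31.8, 31.8 and 35.6 CPM at 12 h, and at 31.8 and 58.3 CPM at 24 h. All 3 libraries at 6 h lay below every normoxic one, while 12 h replicates 1 and 2 and 24 h replicate 1 lay just below the lowest of these. The log2 fold change at 6 h was -0.60 (SE 0.20, adjusted p = 0.0201). Leaving out 0 h replicate 3 (-0.57), 6 h replicate 1 (-0.50) or 6 h replicate 2 (-0.59) ended the call, with adjusted p up to 0.0794. At 12 h the log2 fold change was -0.04 (adjusted p = 0.868), and -0.51 and called with library size alone. At 24 h it was 0.40 (SE 0.22, adjusted p = 0.124), 0.72 and called without 24 h replicate 1, and -0.12 without 24 h replicate 2. The direction of BAX at 24 h therefore turned on which library was kept, and it was -0.61 with library size alone. BAX was higher at 24 h than at 6 h (1.00, SE 0.22, adjusted p = 0.00292), by 0.50 without 24 h replicate 2. Library size alone gave 0.31 and quality weights 0.93, and neither was called (adjusted p over the 20 alternatives of up to 0.165).

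**Figure D2:**
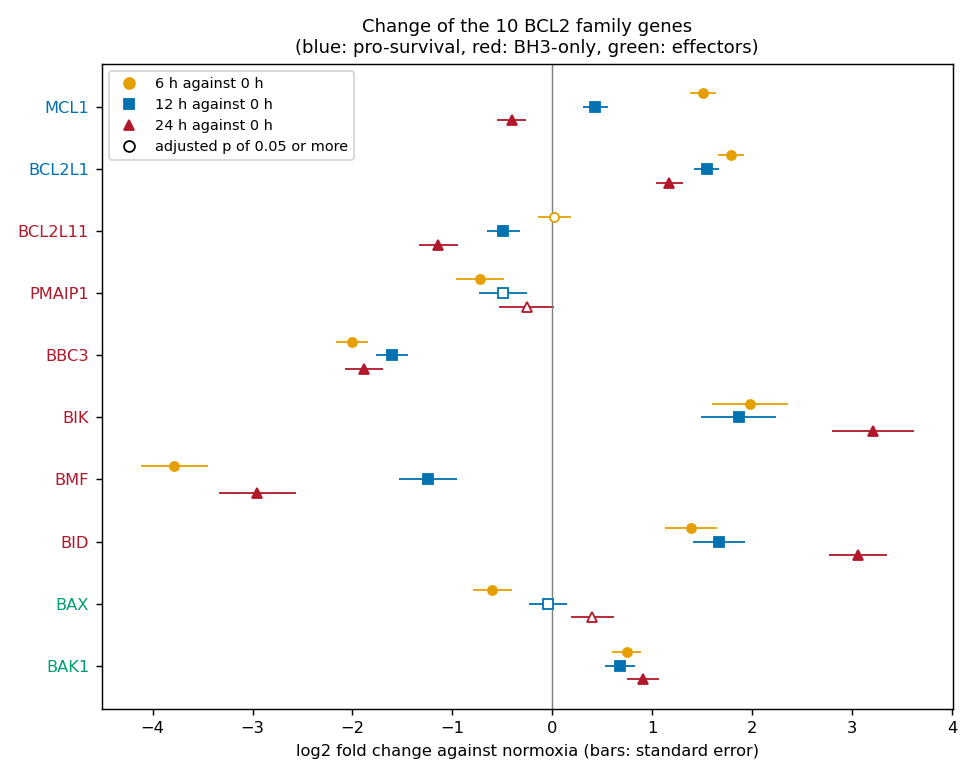
Log2 fold change of each gene against normoxia at 6, 12 and 24 h, with bars for the standard error and open symbols where the adjusted p was 0.05 or more. Pro-survival BCL2L1 was higher at all times (1.79, 1.54 and 1.17), while the BH3-only genes split, with BBC3 and BMF to the left of 0 and BIK and BID to the right.

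Between the hypoxic times fewer of the 10 genes were called. From 6 to 12 h 2 were called, against 4.95% of all tested genes, namely MCL1 lower (3.07% of all) and BMF higher (1.88%). From 12 to 24 h 5 were called, against 28.4%, with MCL1, BCL2L11 and BMF lower (13.3%) and BIK and BID higher (15.1%). With only the 12 and 24 h libraries in the fit 0 of the 10 were called by edgeR, with 5 at an unadjusted p under 0.05. In that fit 0 of 17807 tested genes were called, with 5671 at an unadjusted p under 0.05. With all libraries but 12 h replicate 2, or all but 12 h replicate 3, 3 of the 10 were called. Over all tested genes these fits called 3068 of 19903 and 3170 of 19927. From 6 to 24 h 6 were called, against 42.4%, with MCL1, BCL2L1 and BCL2L11 lower (20.3%) and BIK, BID and BAX higher (22.1%). The fall of BCL2L11 from 12 to 24 h (-0.65, adjusted p = 0.0249) lost its call without 12 h replicate 2 (-0.66), 12 h replicate 3 (-0.55) or 24 h replicate 2 (-0.40), and in 3 other alternatives, with adjusted p over the 20 of up to 0.228.

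Libraries of hypoxia and normoxia did not overlap in 9, 9 and 8 of the 10 genes at 6, 12 and 24 h. Over all tested genes the same held for 69.6%, 72.3% and 73.0%. A two-sided exact permutation test of a single gene cannot go below p = 0.1 with 3 libraries against 3, or p = 0.2 with 2 against 3, so the calls rest on the fit across all genes.

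To compare the genes with each other, CPM were divided by exonic length in kilobases (RPKM, over all annotated exons). At 0 h the mean RPKM ran from MCL1 (28.1), BAK1 (20.5), BCL2L1 (15.6) and BAX (13.2) through BBC3 (7.02), BCL2L11 (4.54), BMF (3.82), PMAIP1 (3.29) and BID (2.96) to BIK (1.53). At 6 h MCL1 (79.9 RPKM) was still first, and at 12 h BCL2L1 (45.5 RPKM) was. At 24 h BAK1 (38.5 RPKM, SD 7.85, n = 2) and BCL2L1 (35.1 RPKM, SD 4.58, n = 2) led, and BMF (0.489 RPKM) was last. BID moved from rank 9 of 10 at 0 h to rank 3 at 24 h, with a mean of 24.6 RPKM (SD 15.6, n = 2). That rank rested on 24 h replicate 2, where BID was at 35.7 RPKM and MCL1 at 22.1. In 24 h replicate 1 BID was at 13.6 RPKM, below MCL1 at 20.4.

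Ratios of 2 transcripts within a library do not depend on the scaling between libraries, and their change over time does not depend on gene length. MCL1 over BCL2L1 in RPKM was 1.80, 1.88 and 1.74 at 0 h and 1.54, 1.397 and 1.503 at 6 h. It was 0.876, 0.817 and 0.807 at 12 h and 0.640 and 0.575 at 24 h. The group values did not overlap at any time. In RPKM BCL2L1 had passed MCL1 by 12 h, but the time of that crossing depends on the exonic lengths used. In CPM MCL1 was still above BCL2L1 at 12 h (means of 236 and 191 CPM) and below it at 24 h (132 and 147 CPM). The mean log2 ratio at 24 h minus that at 0 h was -1.57 (exact permutation p = 0.2, the smallest that 2 against 3 allows).

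PMAIP1, BCL2L11 and BBC3 were next each set against 1 pro-survival partner that their proteins are known to bind. BMF, which fell, and BIK and BID, which rose, were not set against a partner. PMAIP1 over MCL1 was 0.104, 0.121 and 0.127 at 0 h, 0.028, 0.020 and 0.025 at 6 h, 0.072, 0.063 and 0.049 at 12 h, and 0.165 and 0.096 at 24 h. This ratio was at its lowest at 6 h, and at 24 h it overlapped normoxia. BCL2L11 over MCL1 went from 0.147, 0.170 and 0.169 at 0 h to 0.058, 0.069 and 0.048 at 6 h, and was 0.122 and 0.074 at 24 h. Of the 5 ratios examined, BBC3 over BCL2L1 showed the widest change. It was 0.441, 0.452 and 0.458 at 0 h and 0.027, 0.035 and 0.034 at 6 h. It was 0.049, 0.052 and 0.052 at 12 h, and 0.066 and 0.044 at 24 h. Its mean log2 ratio minus that of normoxia was -3.81, -3.15 and -3.07 at 6, 12 and 24 h (exact permutation p = 0.1, 0.1 and 0.2, the smallest possible).

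BAX over BAK1, the ratio of the effectors, was 0.601, 0.666 and 0.661 at 0 h and 0.247, 0.244 and 0.265 at 6 h. It was 0.330, 0.394 and 0.462 at 12 h and 0.373 and 0.511 at 24 h, below normoxia in all 8 hypoxic libraries. The mean log2 ratio minus that of normoxia was -1.35 at 6 h and -0.55 at 24 h (exact permutation p = 0.1 and 0.2, again the smallest possible).

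**Figure D3:**
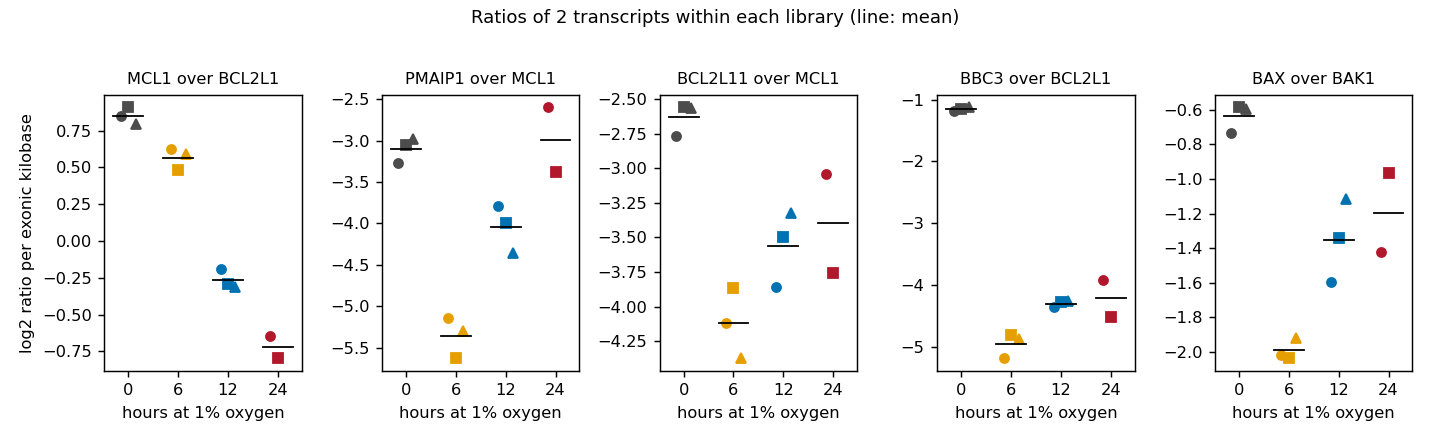
Log2 ratio of 2 transcripts per exonic kilobase in each library against hours at 1% oxygen, with a line for the mean of each time. MCL1 over BCL2L1 stepped down at every time, while PMAIP1 over MCL1 was lowest at 6 h and overlapped normoxia at 24 h.

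Summed by role, the pro-survival transcripts stood at 42.4 to 45.5 RPKM at 0 h, 125 to 143 at 6 h, 80.7 to 87.3 at 12 h, and 52.3 and 60.5 at 24 h. The 6 BH3-only transcripts summed to 22.6 to 23.9 RPKM at 0 h, 21.3 to 24.1 at 6 h, 24.0 to 25.2 at 12 h, and 28.1 and 63.9 at 24 h. The effectors summed to 32.8 to 35.0 RPKM at 0 h, 37.7 to 47.5 at 6 h, 43.5 to 49.5 at 12 h, and 45.2 and 66.5 at 24 h. The BH3-only sum overlapped between 0 and 6 h although its members moved in both directions. These sums and their ratio hold the 10 genes only and leave out other expressed family genes. Among those are BH3-only BAD (mean of 10.1 CPM at 0 h and 59.2 CPM at 24 h) and HRK (3.58 and 2.22 CPM). Pro-survival BCL2L2 (52.5 and 19.6 CPM) and BCL2 (2.92 and 1.36 CPM) are also outside the sums. The sum of BH3-only over the sum of pro-survival RPKM was 0.496, 0.542 and 0.552 at 0 h and 0.159, 0.194 and 0.152 at 6 h. It was 0.277, 0.297 and 0.306 at 12 h, and 0.538 and 1.06 at 24 h. It was thus lowest at 6 h, and at 24 h replicate 1 lay within the normoxic range and replicate 2 above it.

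Within the BH3-only sum the make-up changed. BBC3 held 31.7%, 29.0% and 30.3% of the summed RPKM at 0 h and 6.81%, 7.64% and 8.96% at 6 h. BMF held 16.4%, 16.3% and 16.8% at 0 h and 1.33%, 1.01% and 1.38% at 6 h. BID held 13.3%, 12.5% and 12.6% at 0 h, 35.9%, 34.5% and 33.4% at 6 h, and 48.4% and 55.8% at 24 h. BIK held 6.24%, 7.32% and 6.23% at 0 h, 23.2%, 30.1% and 27.2% at 6 h, and 21.3% and 35.1% at 24 h. In all 8 hypoxic libraries BID had the largest share of the 6, and in the 3 normoxic libraries BBC3 had it. Both 24 h libraries showed this order, replicate 2 more than replicate 1. The first place of BBC3 in normoxia depends on the exonic lengths used. In CPM BCL2L11 was above BBC3 at 0 h (means of 30.6 and 22.4 CPM). BID had the highest mean CPM of the 6 at 6, 12 and 24 h too (34.2, 41.6 and 109 CPM).

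**Figure D4:**
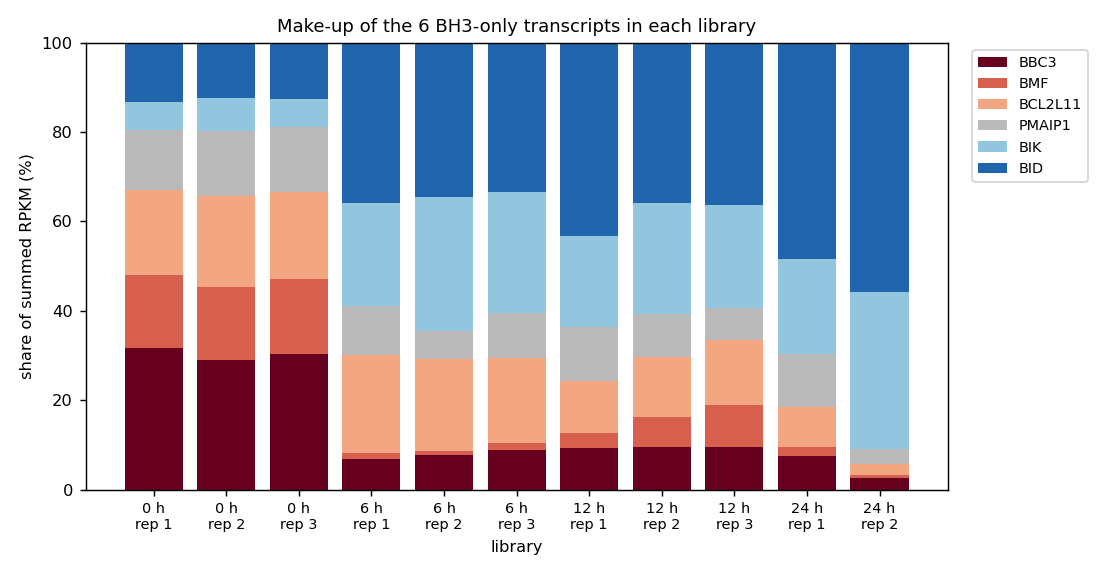
Share (%) of each BH3-only gene in the summed RPKM of the 6, 1 bar per library. BBC3 and BMF (the lower red blocks) shrank from 0 h to 6 h and BIK and BID (the blue blocks) grew, and BID reached 48.4% and 55.8% at 24 h.

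For BMF, BIK and BID, the genes that changed most on average over the 3 comparisons, the transcripts with the most similar course were looked up among 13939 genes by Pearson's r of log2 CPM over the 11 libraries. For BMF these were ZBTB22 (r = 0.985), DHX35 (0.985) and ZNF750 (0.982), and for BIK they were SPHK1 (0.993), MT2A (0.991) and RAMP1 (0.989). For BID they were TMSB10 (0.999), SNRPB (0.998) and BRMS1 (0.997). The points share their libraries, 24 h replicate 2 included, and these values are a description only.

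The rest of the BCL2 family was counted from a fixed list of 13 genes, of which 10 had enough counts. BCL2A1, BCL2L14 and BCL2L15 had at most 10, 5 and 7 counts in any library. Of the 10 tested, 3 were higher and 3 lower at 6 h, 4 higher and 2 lower at 12 h, and 5 higher and 3 lower at 24 h. Of all tested genes 25.1% were higher and 27.7% lower at 6 h, 24.2% and 27.1% at 12 h, and 29.9% and 31.3% at 24 h. The median log2 fold change over these 10 was 0.28, 0.25 and 1.10 at the 3 times, beside 0.00, -0.03 and -0.06 over all tested genes. BNIP3, a mitophagy receptor and known HIF target, had log2 fold changes of 2.90, 3.11 and 4.21 (SE 0.22, 0.22 and 0.24), from a mean of 40.5 CPM at 0 h to 751 CPM at 24 h. Its relative BNIP3L had 1.13, 1.00 and 1.63. BCL2L2, which encodes pro-survival BCL-W, fell at all 3 times, with -0.82, -1.10 and -1.42 (SE 0.13, 0.13 and 0.15), opposite in sign to BCL2L1. BCL2 itself was low, with a mean of 2.92 CPM at 0 h, and was called only at 24 h (-1.09, adjusted p = 0.00778). Among the remaining BH3-only genes, BAD rose at 12 and 24 h (1.30 and 2.54) and HRK fell at 6 h (-1.36). BCL2L10 was higher at all 3 times (2.28, 1.89 and 2.92), on only 5 to 57 counts per library. BCL2L13 was lower at all 3 times (-1.21, -0.96 and -1.09). BCL2L12 was called only at 24 h, as higher (1.42), and BOK was not called at any of them.

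**Figure D5:**
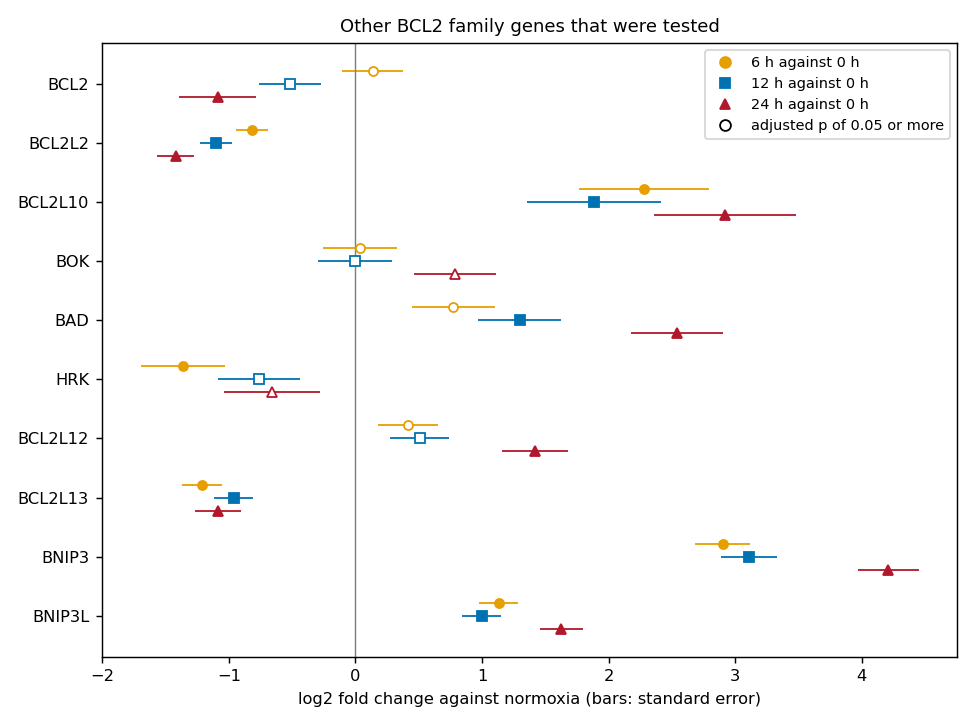
Log2 fold change against normoxia at 6, 12 and 24 h of the 10 other BCL2 family genes that were tested, with bars for the standard error and open symbols where the adjusted p was 0.05 or more. BNIP3 lay farthest to the right (2.90, 3.11 and 4.21), and BCL2L2 lay to the left of 0 at each time.

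Upstream and downstream genes were taken from 6 further lists, whose counts stand beside 52.8%, 51.2% and 61.2% of all tested genes called at 6, 12 and 24 h. Of 11 apoptosome and caspase genes, 5 were higher and 2 lower at 6 h, 3 and 2 at 12 h, and 2 and 2 at 24 h, so that at 24 h 4 of 11 were called, a smaller share than over all genes. DFFB, the nuclease that cuts DNA in dying cells, had log2 fold changes of 1.47, 1.26 and 0.64, and the initiator caspase CASP10 had -0.96, -0.94 and -1.34. Of 8 inhibitors of apoptosis and their antagonists, 2 were higher and 2 lower at 6 h and at 12 h, and 3 and 2 at 24 h. BIRC3, which encodes cIAP2, had 2.60, 2.75 and 2.96, and XIAP, a direct caspase inhibitor, had -1.17, -1.43 and -2.44.

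Of 10 death receptor and adaptor genes 9 were tested, with FASLG at no more than 1 count. At 6 h 2 were higher and 3 lower, at 12 h 1 and 3, and at 24 h 1 and 4, or 5, 4 and 5 of 9 called against 52.8%, 51.2% and 61.2%. The TRAIL receptor gene TNFRSF10A had log2 fold changes of 1.72, 1.46 and 0.93, and TNFSF10, which encodes TRAIL, had -2.00, -0.82 and -0.65. These bear on BID because its protein is cut downstream of such receptors, and no cutting was measured. The 3 VDAC channel genes of the outer mitochondrial membrane were higher at all 3 times, with 0.46, 0.89 and 1.82 for VDAC2, whose protein is known to hold BAK.

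Of 7 genes for the turnover of MCL1 and NOXA proteins, 2 were higher and none lower at 6 h, 1 and 1 at 12 h, and 1 and 2 at 24 h. Of 14 transcription factors known to act on BCL2 family genes, 2 were higher and 7 lower at 6 h, 4 and 6 at 12 h, and 1 and 5 at 24 h, or 9, 10 and 6 of 14 called against 52.8%, 51.2% and 61.2%. DDIT3, which encodes the stress factor CHOP, had log2 fold changes of -5.85, -3.03 and -2.73, from a mean of 95.0 CPM at 0 h to 1.66 CPM at 6 h. FOXO3, whose product acts on BCL2L11, was higher at 6 and 12 h (0.93 and 0.41) and at -0.24 at 24 h (adjusted p = 0.184).

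Promoter letters were read in RefSeq (GRCh38.p14) over the 250 bases before each start, where 8 of the 10 genes had an entry. MCL1 and BIK had none. The core of the hypoxia response element, ACGTG on either strand, which also lies inside the E-box CACGTG, was found for BBC3, BID and BAX, and 18.5% of 35116 promoters hold it. BID had 5 entries, of which 2 held the letters and 3 did not, while the background share is per single promoter. An E-box counts as 2 matches, 1 on each strand. BBC3 and each of these 2 BID entries had 2 matches and 1 E-box, so no match lay outside an E-box. BAX had 9 matches and 4 E-boxes, and 6.34% of all promoters hold an E-box. BBC3 fell, BID rose and BAX was called at 6 h alone, so the genes with the letters did not share a direction. The forkhead core TGTTTAC was found for BCL2L11, as in 2.98% of all promoters. These matches are letters in a window, and no binding was measured.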

How the data were processed

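The deposited file holds the authors' raw counts per Ensembl gene (60676 genes, 11 libraries), made from 75-cycle single-end reads of 12 stranded libraries built together. By the study's methods reads were trimmed with Trimmomatic, aligned to GRCh38 (Ensembl release 99) with STAR and counted with featureCounts. The strand setting and the handling of reads with several matches are not given in the sources used here, so reads from overlapping genes may be shared or lost.

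Symbols, positions and exonic lengths came from GENCODE release 44, in which 60357 identifiers were found. filterByExpr (minimum count 10, minimum total 15) kept 19981 genes. TMM scaling and edgeR 4.0.16 quasi-likelihood tests were applied to the 11 libraries together, with 1 mean fitted for each time (biological coefficient of variation 19.6%). Adjusted p-values are Benjamini-Hochberg over all tested genes of a comparison, and the SE is the log2 fold change over the square root of F. log2 CPM used a prior count of 2. Permutation tests were exact and two-sided. The tests were also run on simulated counts with 200 changed genes, far fewer than were called against 0 h in these data. That run does not show how the tests perform where so many genes differ.

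The genes and lists were chosen with earlier results of these data known. From each list were named the genes with the highest and lowest average over the 3 comparisons with 0 h among those called in all 3, apart from results not reported here, and the text names BNIP3L, BCL2, BAD, HRK and FOXO3 after their values were seen. There were 20 alternatives: limma-voom 3.58.1 with and without quality weights, DESeq2 1.42.0, other scalings and filters, the compared time points alone, a replicate block, and each library left out.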

Additional observations from a re-analysis of the deposited data

Results flagged for a closer look

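The fold change against 0 h differed between 2 hypoxic times, by edgeR's test of the difference, for 13 combinations of gene and times. The 0 h libraries cancel in such a difference, which is the log2 fold change from the earlier to the later time. From 6 to 12 h it was -1.07 for MCL1 and 2.54 for BMF. From 12 to 24 h it was -0.837 for MCL1, -0.65 for BCL2L11, 1.34 for BIK, -1.71 for BMF and 1.39 for BID. From 6 to 24 h it was -1.91 for MCL1, -0.618 for BCL2L1, -1.16 for BCL2L11, 1.23 for BIK, 1.67 for BID and 1.00 for BAX. BIK without 24 h replicate 2 was at 0.09 and -0.01 for the differences to 24 h, and neither was called. The difference of BIK from 6 to 24 h also lost its call without 6 h replicate 1 (1.10) or 6 h replicate 3 (1.21). BAX from 6 to 24 h was at 0.50 without that library and kept its call, which it lost with library size alone (0.31) and with quality weights (0.93). With 2 or 3 libraries per time, single libraries were not tested for standing apart from their group.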

How the results depend on the processing

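Over 20 alternatives and 60 log2 fold changes, 1095 of 1200 values kept direction and call, 50 lost the call, 27 gained it and 28 changed sign. The log2 ratio of PMAIP1 over MCL1 at 24 h, at 0.11 against normoxia, was -0.28 without 24 h replicate 1 and 0.50 without 24 h replicate 2. Counts of called genes moved by over 1.5 times only between hypoxic times. From 6 to 12 h the count of 2 became 5 with voom quality weights, 4 with only those times in the fit, and 2 to 4 with 1 library left out (4 without either 24 h library). From 12 to 24 h the count of 5 became 2 with quality weights, 0 with only those times (5 at an unadjusted p under 0.05, edgeR), and 3 to 6 with 1 library left out. From 6 to 24 h the count of 6 became 3 with quality weights. The counts over all tested genes moved the same way. From 6 to 12 h, 12 to 24 h and 6 to 24 h they were 989, 5668 and 8479. With quality weights they were 4489, 1093 and 2531. With only the compared times in the fit they were 1876 from 6 to 12 h and 0 from 12 to 24 h. The cause was not tested.

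Library size alone, which lowers the median of all genes by 0.32, 0.50 and 0.97 at 6, 12 and 24 h, changed the sign of 10 values. These were BCL2L11 at 6 h (-0.30), MCL1 at 12 h (-0.040), and BAX (-0.61) and BAK1 (-0.053) at 24 h, all against 0 h. From 12 to 24 h they were PMAIP1 (-0.14), BAX (-0.10) and BAK1 (-0.26), and from 6 to 24 h PMAIP1 (-0.068), BBC3 (-0.45) and BAK1 (-0.48). BCL2L11 at 6 h was also -0.024 with no filter and -0.070 with at least 10 counts in every library. Leaving out 1 library gave -0.040 to 0.093 for BCL2L11 at 6 h, -0.69 to 0.014 for PMAIP1 and -0.12 to 0.72 for BAX at 24 h against 0 h. It gave -0.24 to 0.034 for BIK and -0.17 to 0.0025 for BAK1 from 6 to 12 h. From 12 to 24 h it gave -0.16 to 0.52 for PMAIP1, -0.071 to 0.79 for BAX and -0.0038 to 0.40 for BAK1. From 6 to 24 h it gave -0.097 to 0.26 for BBC3, -0.014 to 1.86 for BIK and -0.062 to 0.33 for BAK1.

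With a replicate block 58 of the 60 results kept direction and call, and MCL1 at 24 h against 0 h (-0.40, adjusted p = 0.0635) and BCL2L11 from 12 to 24 h (-0.64, adjusted p = 0.0581) lost theirs. Libraries sharing a number did not deviate together (15 pairs, median r = -0.049, with 2 over 0.1), so the numbers were not treated as pairs.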
